A study of Homo sapiens with 8 samples.

Results

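Aminoacyl-tRNA synthetases are the enzymes that join each amino acid to its own tRNA, the step that lets a ribosome read a codon as an amino acid. Human cells keep separate sets of these enzymes for the cytosol and for the mitochondrion, and both sets are encoded in the nucleus. The genes of the mitochondrial enzymes mostly carry names that end in 2. Several of their cytosolic partners are known targets of the amino acid response. In that response uncharged tRNA activates the kinase GCN2 and the transcription factor ATF4 is made. The genes were chosen by symbol alone, and 37 of the 13453 genes in the deposited expression table were members. Of these, 21 encode cytosolic enzymes or subunits and 16 encode mitochondrial enzymes. TARSL2 ends in 2 but encodes a cytosolic enzyme and was counted there. GARS and KARS each give both a cytosolic and a mitochondrial enzyme, EPRS is a single protein that charges both glutamate and proline tRNAs, and FARSA and FARSB are the subunits of 1 enzyme.

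The members were compared in Jurkat cells, an established human T-cell acute lymphoblastic leukemia (T-ALL) line, with and without CBAP, a protein encoded by TMEM102. RNA-seq had been done on 8 libraries, 2 for each of 4 conditions. The sh-Ctrl cells carry a lentiviral non-target shRNA and the sh-CBAP cells an shRNA against CBAP, both selected with puromycin, and these 4 libraries are called the shRNA set. CBAP-KO cells were made with CRISPR/Cas9 and express GFP, and CBAP-reconstituted cells are CBAP-KO cells that express a CBAP-GFP fusion, and these 4 libraries are called the CRISPR set. Both conditions of the CRISPR set therefore carry a CBAP knockout. The knockout cells were grown from single cells and the shRNA cells are stable clones, so both sets rest on clonal material. The knockout lines that express GFP or CBAP-GFP are stable clones as well. CBAP status and differences between clones therefore cannot be told apart in either set. Which of the shRNAs the sequenced sh-CBAP cells carried is not given in the sources used here. Nothing in the labels says that the 2 libraries of a condition came from separate cultures, so the p-values measure the spread between libraries, which may be technical.

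A short DNA element found in amino acid response genes was searched in the promoters of the members, because the cytosolic genes that hold it and those that do not are set side by side in the results. Its core is TGATGNAA, part of the composite site that ATF4 is known to bind with a C/EBP partner. The search covered both strands of 300 bases around each start site in RefSeq (GRCh38.p14), from 250 bases before it to 50 after, and 30 of the 37 members had such a window. The motif was in 7 of the 16 cytosolic members with a window (AARS, CARS, GARS, IARS, MARS, NARS and TARS) and in 1 of the 14 mitochondrial members (YARS2). Of all genes with a window, 4.46% held it. The stretches of 6 cytosolic members are shown, with that of YARS2, the mitochondrial exception, and that of ASNS, the asparagine synthetase gene in which such an element is well known. Each is read 5′ to 3′ on the strand of its gene, and the capitals mark the motif or its reverse complement TTNCATCA.
IARS, chr9:92293693-92293720, minus strand: tttcagcgcgTTGCATCAcctccgtgcg
MARS, chr12:57488054-57488081, plus strand: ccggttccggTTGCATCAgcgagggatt
NARS, chr18:57621805-57621832, minus strand: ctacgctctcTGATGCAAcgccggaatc
CARS, chr11:3057408-3057435, minus strand: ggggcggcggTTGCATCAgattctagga
TARS, chr5:33440957-33440984, plus strand: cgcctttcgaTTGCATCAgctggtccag
GARS, chr7:30594835-30594862, plus strand: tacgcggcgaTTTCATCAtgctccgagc
YARS2, chr12:32756077-32756104, minus strand: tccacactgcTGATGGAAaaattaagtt
ASNS, chr7:97872459-97872486, minus strand: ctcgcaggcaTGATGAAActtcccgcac

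Expression was given as FPKM, a fragment count divided by the exon length of the gene and by the mapped fragments of the library. Levels can therefore be compared between genes per length, but no counts are kept and the sequencing depth is unknown. The summed FPKM ranged from 362082 to 434742 over the libraries, and 606 to 1256 genes had a listed 0. As 710 genes combined a listed 0 with an FPKM of 5 or more elsewhere, a 0 is read here only as a listed 0. TMEM102 was at an FPKM of 4.07 and 4.74 in sh-Ctrl and of 2.69 and 2.89 in sh-CBAP cells (log2 change -0.51, standard error (SE) 0.096, adjusted p = 0.0287 from limma). That call was kept in 6 of 14 alternatives, with adjusted p from 0.019 to 0.208, and was lost with the shRNA set fitted on its own. All 4 CRISPR-set libraries list it at 0, also the pair labelled CBAP-reconstituted, and the targeted gene therefore gave no check of those labels. Of 10 T-lineage genes, 9 had an FPKM above 1 in every library (CD5 in 6), and their summed FPKM lay between 1424 and 2277. Of 4 B-lineage and 4 myeloid genes, the table lists only CD79A, a B-cell receptor component, at an FPKM between 0.732 and 22.5. These markers moved with the conditions of the CRISPR set, where the T-lineage sum was 1434 and 1424 in CBAP-reconstituted and 1831 and 2277 in CBAP-KO cells, and CD79A was 0.732 and 1.09 and then 9.60 and 9.91. In the shRNA set the T-lineage sum was 1549 and 1565 in sh-Ctrl and 1636 and 1773 in sh-CBAP cells. Their part in the results was not tested. Over the 34 members with no listed 0 (genes, not replicates), Pearson's r of the paired libraries of each condition lay between 0.994 and 0.999. In the sh-CBAP cells, 30 of these 34 were higher in replicate 2 than in replicate 1, with a median log2 difference of 0.13.

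The cytosolic enzymes were expressed at higher levels per length than the mitochondrial ones. FARSA, the catalytic subunit of phenylalanyl-tRNA synthetase, had the highest mean FPKM over the 8 libraries, 169. KARS and GARS followed at 148 and 130. The ranges of these genes overlapped, and their order changed with the condition. In sh-CBAP cells KARS, at 152 and 167, was above FARSA, at 128 and 132. In CBAP-KO cells GARS, at 140 and 144, was above KARS, at 118 and 118. MARS, NARS and YARS, at means of 92.0, 91.4 and 88.6, had overlapping ranges over the libraries and could not be ordered. IARS2, for mitochondrial isoleucine, was the highest mitochondrial member at a mean of 51.0 and was 15th of all 37. PARS2, for mitochondrial proline, was the lowest at 3.62, with a range of 2.86 to 4.16. TARSL2 was the lowest cytosolic member with no listed 0, at a mean of 8.01. Together the 20 cytosolic members with no listed 0 made up between 0.354% and 0.392% of the FPKM of a library, and the 14 such mitochondrial members between 0.0530% and 0.0686%.

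**Figure D1:**
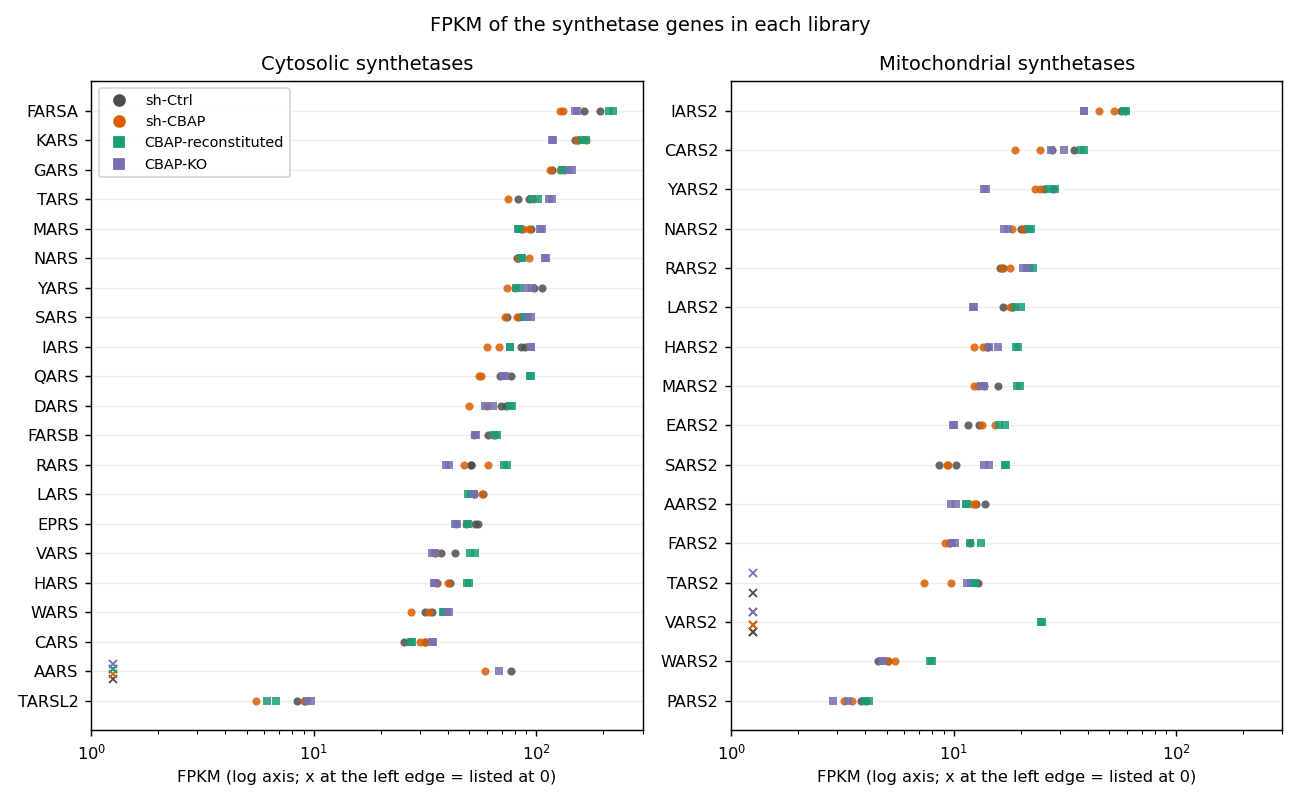
FPKM of each synthetase gene in each of the 8 libraries (log axis), cytosolic genes on the left and mitochondrial genes on the right, ordered by their mean; each point is 1 library, coloured by condition, and crosses at the left edge mark libraries listed at 0. Most cytosolic genes lie above an FPKM of 30 and most mitochondrial genes under 30, and the CBAP-KO points (purple squares) of YARS2, LARS2, EARS2 and IARS2 lie apart from the CBAP-reconstituted points (green squares).

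The first question was whether the enzymes of either compartment differed between CBAP-KO and CBAP-reconstituted cells, the 2 conditions of the CRISPR set. Changes were fitted with limma on log2(FPKM + 1), a scale that understates the change of genes with low FPKM, and a gene is called where its p adjusted by Benjamini-Hochberg over the 11427 genes tested was under 0.05. All 37 members were tested. In CBAP-KO against CBAP-reconstituted cells 49.9% of all genes tested were called, 23.9% higher and 25.9% lower, so single calls are common in this set and the counts below are read against these shares. By sign alone 25 of the 37 members were lower, against 49.5% of all genes tested. In bulk RNA, fewer cells of a type and less RNA per cell cannot be told apart.

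The mitochondrial synthetases were lower in CBAP-KO cells. Of the 16 members, 11 were called lower and 0 higher, and the median log2 change was -0.43, beside 0 for all genes tested. For the 14 members with no listed 0 the median was -0.35. In all 16 members both CBAP-KO libraries lay under both CBAP-reconstituted libraries, a pattern that 42.7% of all genes tested showed in this direction. Listed zeros count as lower values here, in both CBAP-KO libraries for VARS2 and in CBAP-KO replicate 2 for TARS2. The summed FPKM of the 14 members was 295 and 298 in the CBAP-reconstituted libraries and 217 and 208 in the CBAP-KO libraries. Their share of the FPKM of a library was 0.0685% and 0.0686% and then 0.0565% and 0.0530%. With quantile normalization 13 were called lower, and with scaling to the median ratio 10, with 0 higher in each case. With CBAP-reconstituted replicate 1 or 2 or with CBAP-KO replicate 2 left out, 7 were called.

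YARS2, for mitochondrial tyrosine, showed the largest log2 change among the members with no listed 0. Its FPKM was 28.4 and 26.9 in the CBAP-reconstituted libraries and 14.0 and 13.7 in the CBAP-KO libraries. Both knockout libraries were thus far under the others, and the mean fell by 49.9% (log2 change -0.95, SE 0.068, adjusted p = 0.000277 from limma). The same gene had 25.3 and 27.9 in sh-Ctrl cells and 24.5 and 23.1 in sh-CBAP cells and was not called there (adjusted p = 0.196).

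EARS2, for mitochondrial glutamate, had an FPKM of 16.0 and 16.98 in the CBAP-reconstituted libraries and 9.98 and 9.92 in the CBAP-KO libraries (log2 change -0.68, SE 0.089, adjusted p = 0.00206 from limma). LARS2, for mitochondrial leucine, had 18.9 and 20.1 and then 12.3 and 12.1 (log2 change -0.63, SE 0.067, adjusted p = 0.000958). WARS2, for mitochondrial tryptophan, is low in these cells and had 7.995 and 7.83 and then 4.79 and 4.74 (log2 change -0.63, adjusted p = 0.00138). The conditions did not overlap in any of the 3 genes. EARS2 shares 203 exon bases with GGA2 on the same strand, and how fragments there were assigned is not given in the sources used here.

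Among the other members called lower, IARS2 was the most abundant, at 58.5 and 59.6 in the CBAP-reconstituted libraries and 38.7 and 38.5 in the CBAP-KO libraries (log2 change -0.60, adjusted p = 0.00206). MARS2, NARS2, HARS2, PARS2 and SARS2 were called with log2 changes between -0.50 and -0.26. SARS2 was near the threshold, with an adjusted p of 0.0494, and shares 1492 exon bases with another protein-coding annotation on the same strand. CARS2, FARS2, AARS2, RARS2 and TARS2 were not called. RARS2, for mitochondrial arginine, had the smallest difference, 21.7 and 22.7 against 20.5 and 21.3 (log2 change -0.08, adjusted p = 0.307).

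The cytosolic synthetases moved both ways in the same cells. Of the 21 members, 3 were called higher and 8 lower, and the median log2 change was 0.07. The libraries of the 2 conditions did not overlap for 20 of the 21 members, 11 with CBAP-KO higher and 9 lower, where 43% and 42.7% of all genes tested did so. The balance of calls depended on the scaling. With quantile normalization 10 were called higher and 5 lower and the median was 0.23, and with scaling to the median ratio 4 were called higher and 9 lower. With quantile normalization 2955 of all genes tested were called higher and 2903 lower, beside 2734 and 2963 with the values as deposited. The summed FPKM of the 20 members with no listed 0 was 1593 and 1619 in the CBAP-reconstituted libraries and 1482 and 1512 in the CBAP-KO libraries, whereas their share of the FPKM of a library was 0.370% and 0.372% and then 0.386% and 0.385%.

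**Figure D2:**
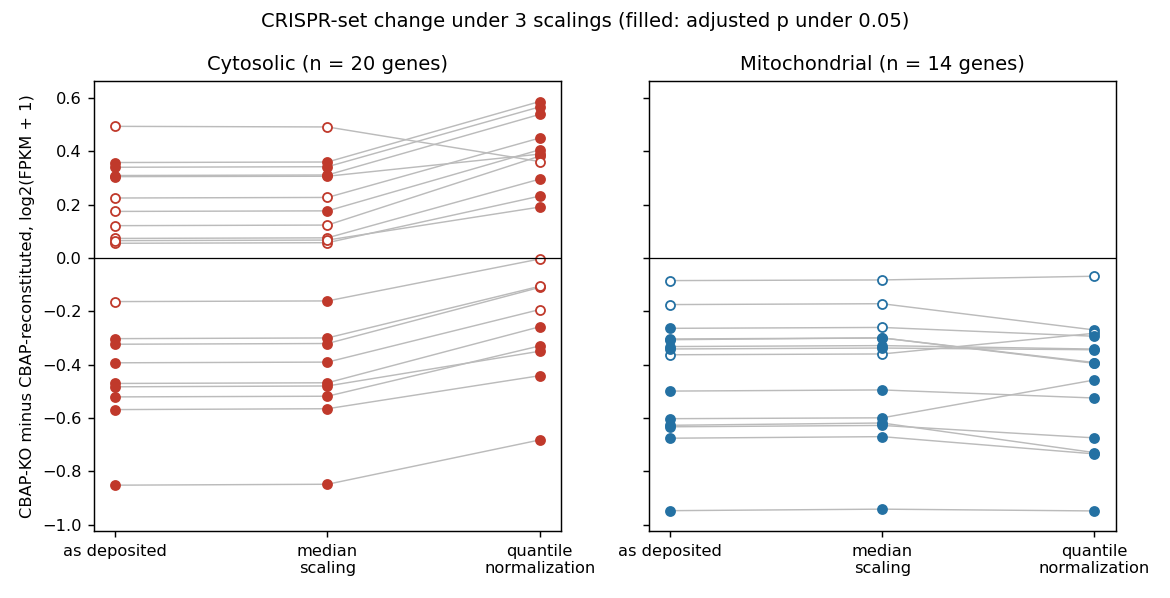
Log2 change of each synthetase gene between CBAP-KO and CBAP-reconstituted cells (vertical axis, log2(FPKM + 1)) with the values as deposited, with median scaling and with quantile normalization; lines join the values of 1 gene and filled points have an adjusted p under 0.05. Every mitochondrial gene shown stays under 0 in each scaling, while the cytosolic genes lie on both sides of 0 and, except for TARSL2, shift upward with quantile normalization.

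RARS, for arginine, fell most among the cytosolic members. Its FPKM was 71.5 and 73.9 in the CBAP-reconstituted libraries and 39.1 and 40.6 in the CBAP-KO libraries, and the mean fell by 45.2% (log2 change -0.85, SE 0.114, adjusted p = 0.00224 from limma). VARS, for valine, had 52.8 and 50.4 and then 35.1 and 33.9 (log2 change -0.57, SE 0.077, adjusted p = 0.00233). KARS, for lysine, had 161 and 167 and then 118 and 118 (log2 change -0.47, SE 0.060, adjusted p = 0.00184). Each of these genes was called lower in all 16 alternatives run, the scalings included.

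FARSA had an FPKM of 211 and 221 in the CBAP-reconstituted libraries and 149 and 152 in the CBAP-KO libraries (log2 change -0.52, SE 0.083, adjusted p = 0.00418 from limma). FARSB, the other subunit of the enzyme, had 64.8 and 66.9 and then 53.0 and 53.4 (log2 change -0.30, adjusted p = 0.0431) and was called in 9 of 16 alternatives. Both subunits were thus lower in the knockout libraries, and the FARSB call was lost with quantile normalization. HARS, for histidine, had 49.7 and 48.6 and then 34.9 and 34.8 (log2 change -0.48, SE 0.089, adjusted p = 0.00689). HARS lies head to head with HARS2 on chromosome 5 of GRCh37, from 140052620 to 140071122 on the minus strand, with HARS2 from 140071015 to 140078890 on the plus strand. The pair share 86 exon bases, and without a stated strand setting their fragments there cannot be told apart. HARS2 had 19.0 and 19.5 and then 15.8 and 14.4 (log2 change -0.33, adjusted p = 0.0125).

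QARS, for glutamine, had 93.8 and 94.3 in the CBAP-reconstituted libraries and 72.0 and 70.8 in the CBAP-KO libraries (log2 change -0.39, SE 0.064, adjusted p = 0.00444), and its call was lost with quantile normalization alone among the 16 alternatives. DARS, for aspartate, had 76.0 and 78.1 and then 58.8 and 64.1 (log2 change -0.32, adjusted p = 0.0343) and was called in 8 of them. The genes called higher were NARS, MARS and IARS, for asparagine, methionine and isoleucine. NARS had 86.3 and 84.99 and then 109 and 111 (log2 change 0.36, SE 0.062, adjusted p = 0.00564). MARS had 83.4 and 82.4 and then 104 and 106 (log2 change 0.34, SE 0.065, adjusted p = 0.00778). IARS had 76.5 and 75.8 and then 94.3 and 94.9 (log2 change 0.31, SE 0.065, adjusted p = 0.0109), and its call was lost with any 1 of the 4 CRISPR-set libraries left out. The knockout libraries were above the others in all 3 genes. MARS shares 68 exon bases with DDIT3, a stress response gene on the opposite strand, which itself had 11.0 and 10.4 and then 9.77 and 11.1.

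The second question was whether the same enzymes differed when CBAP was lowered by shRNA. In sh-CBAP against sh-Ctrl cells 12.3% of all genes tested were called, 3.62% higher and 8.7% lower. These shares depend on the spread shared with the CRISPR set. With the shRNA set fitted on its own, 58 of all genes tested were called higher and 17 lower. The fit over all 8 libraries, used below, called 414 and 994. Later shares that rest on shRNA-set calls depend on that spread as well. Of the 21 cytosolic members 4 were called lower (FARSA, IARS, QARS and YARS) and 0 higher, with 6 at an unadjusted p under 0.05. Their median log2 change was -0.12, beside -0.06 for all genes tested. None of the 16 mitochondrial members was called by limma, with 3 at an unadjusted p under 0.05 (CARS2, IARS2 and MARS2), and their median was -0.08. All 4 calls were lost when the shRNA set was fitted on its own libraries. Without CBAP-reconstituted replicate 1 or 2, which enter only through the shared spread, limma called 0, with 6 at an unadjusted p under 0.05.

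The direction in this set leaned on which sh-CBAP library was used. Without sh-CBAP replicate 1 the median of the cytosolic members was 0.036, with 2 called higher and 3 lower, and without replicate 2 it was -0.18, with 7 called lower. Scaling also moved the balance over all genes, from 414 higher and 994 lower as deposited to 830 and 826 with quantile normalization and 808 and 845 with median scaling. In these scalings 1 cytosolic member was called higher, with 3 lower in the first and 6 lower in the second.

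The FPKM of IARS was 88.5 and 85.2 in sh-Ctrl cells and 60.3 and 67.8 in sh-CBAP cells (log2 change -0.44, SE 0.065, adjusted p = 0.0169 from limma), and the mean fell by 26.3%. YARS, for tyrosine, had 106 and 98.0 and then 74.2 and 80.0 (log2 change -0.40, SE 0.067, adjusted p = 0.0212). It shares 396 exon bases with S100PBP on the opposite strand. FARSA had 165 and 194 and then 128 and 132 (log2 change -0.46, SE 0.083, adjusted p = 0.0265). QARS had 77.1 and 68.6 and then 55.5 and 56.3 (log2 change -0.37, SE 0.064, adjusted p = 0.0228). In each of the 4 genes both sh-CBAP libraries lay under both sh-Ctrl libraries, which 33.2% of all genes tested showed in this direction. Without overlap 15 members were lower and 3 higher, the latter against 17.4% of all genes tested. Counted by sign alone, 26 of the 37 members were lower, against 59.9% of all genes tested. CARS2, the mitochondrial cysteine enzyme, had 27.7 and 34.8 and then 18.8 and 24.5, and was not called (log2 change -0.51, SE 0.159, adjusted p = 0.0942).

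FARSA and QARS, 2 of the 37 members, were called lower in both sets, a share near the 4.03% of all genes tested. QARS was called in neither set with quantile normalization. The shRNA-set calls of FARSA and QARS were each kept in 9 of 16 alternatives and lost with that set fitted on its own. The difference of their changes between the sets was 0.06 (SE 0.118) for FARSA and 0.02 (SE 0.090) for QARS on the log2 scale. No member was called higher in both, as 1.72% of all genes tested were.

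A difference between the sets in the change itself was called for 12 of the 37 members, 7 cytosolic and 5 mitochondrial, against 33.8% of all genes tested, so the share among the members was near that of all genes. The difference was above 0 for 9 of the 12 and under 0 for 3, where 15.5% and 18.3% of all genes tested were called. IARS went opposite ways, lower in sh-CBAP and higher in CBAP-KO cells, calls kept in 11 and 12 of 16 alternatives (difference of the log2 changes, shRNA minus CRISPR, -0.75, SE 0.092, adjusted p = 0.00332). YARS differed in the same sense, although its value in the CRISPR set was not called (81.3 and 83.3 against 90.1 and 96.1, difference -0.57, adjusted p = 0.00786). RARS had 51.0 and 50.8 in sh-Ctrl and 47.2 and 60.6 in sh-CBAP cells, so that its fall was seen in the CRISPR set, with a difference of 0.92 (SE 0.162, adjusted p = 0.00984). KARS was at 149 and 155 in sh-Ctrl and 152 and 167 in sh-CBAP cells (difference 0.54, adjusted p = 0.00697). HARS, VARS and MARS also differed, with adjusted p between 0.0373 and 0.0423. Of the mitochondrial members YARS2, EARS2, LARS2, WARS2 and VARS2 differed, each with the lower value of the change in the CRISPR set.

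**Figure D3:**
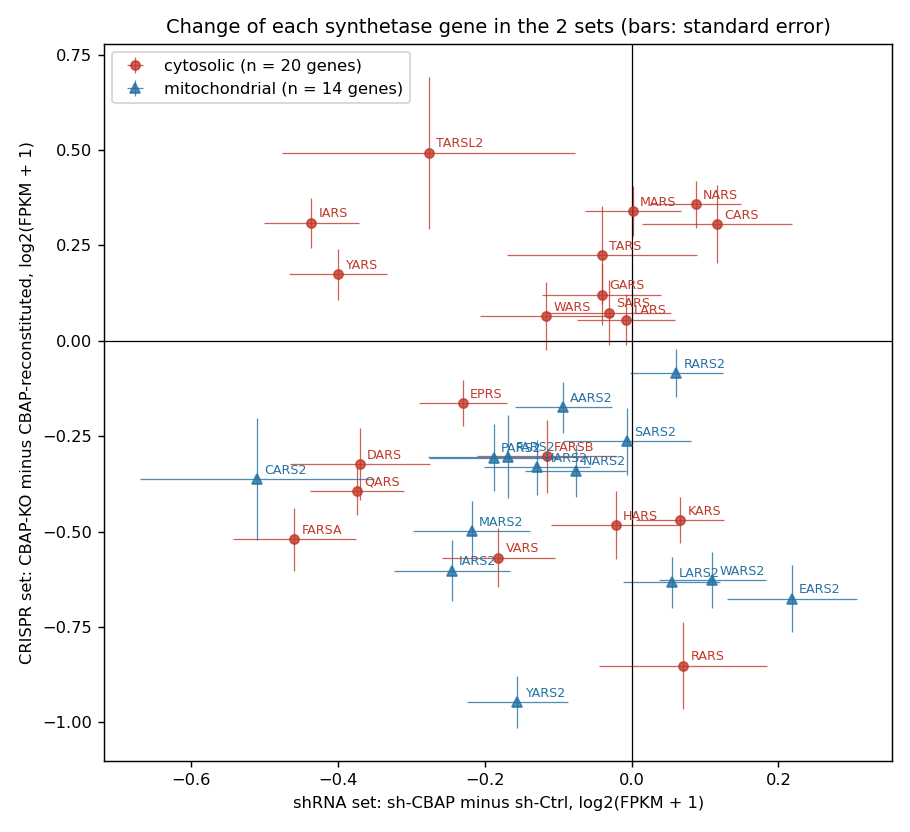
Log2 change of each of the 34 synthetase genes with no listed 0 in the shRNA set (horizontal axis) and in the CRISPR set (vertical axis), both on log2(FPKM + 1), with bars for the standard error; red circles are cytosolic and blue triangles mitochondrial. All 14 triangles lie under 0 on the vertical axis, IARS and YARS lie in the upper left, and FARSA and QARS in the lower left.

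Many amino acids have 1 enzyme in each compartment, so the partners can be set against each other within a library, where the scaling of that library cancels. Of 16 such pairs, 13 had no listed 0. In the CRISPR set the ratio of cytosolic to mitochondrial FPKM was higher in both CBAP-KO libraries than in both CBAP-reconstituted libraries for 10 pairs and lower for 3 (HARS, RARS and FARSA with their partners). Single genes separated without overlap in this set in 43% (higher) and 42.7% (lower) of all genes tested, and no such share was computed for ratios of gene pairs. EPRS stands in 2 of the pairs, against EARS2 and against PARS2. The ratio of YARS to YARS2 was 2.86 and 3.10 in the CBAP-reconstituted libraries and 6.45 and 6.99 in the CBAP-KO libraries. For IARS and IARS2 it was 1.31 and 1.27 and then 2.44 and 2.47. RARS with RARS2 went the other way, from 3.29 and 3.26 to 1.91 and 1.91. In the shRNA set the ratio was higher without overlap for 3 pairs and lower for 5, and that of IARS to IARS2 was 1.498 and 1.511 in sh-Ctrl and 1.34 and 1.29 in sh-CBAP cells.

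**Figure D4:**
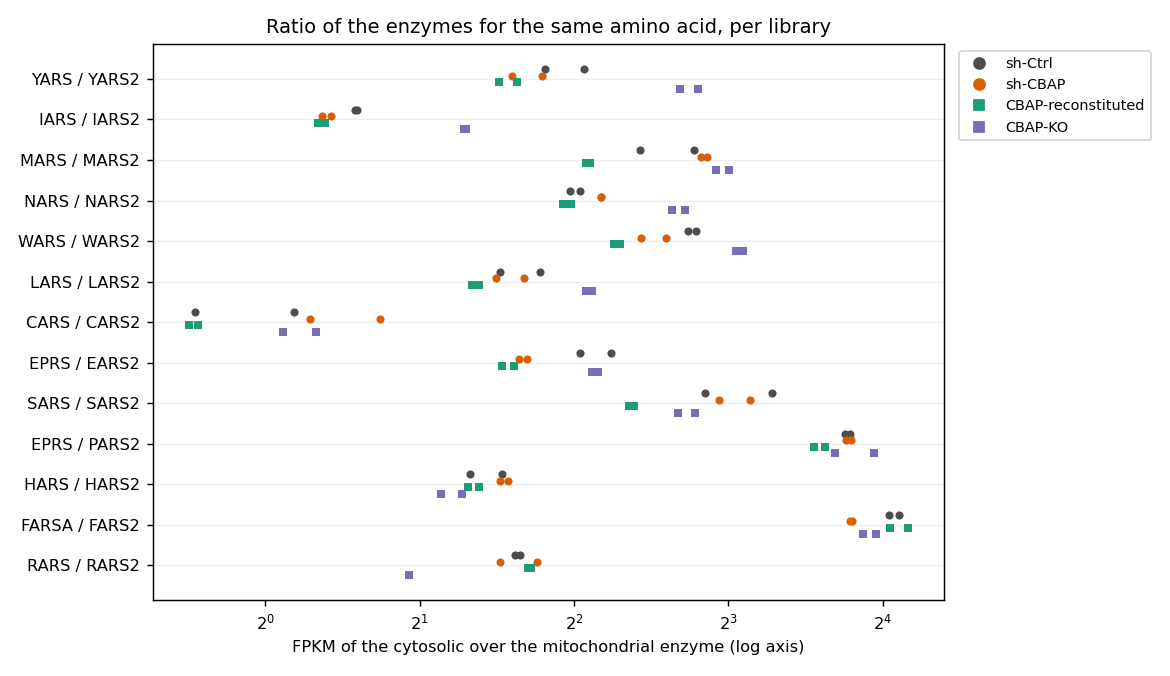
Ratio of the FPKM of the cytosolic to the mitochondrial enzyme for the same amino acid in each library (log axis) for the 13 pairs with no listed 0, ordered by the difference of the CRISPR-set changes; each point is 1 library. The CBAP-KO points (purple squares) lie to the right of the CBAP-reconstituted points (green squares) in the upper 10 pairs and to the left in HARS, FARSA and RARS.

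In the cytosol 8 of the synthetases (EPRS, IARS, LARS, QARS, MARS, KARS, RARS and DARS) are held in the multisynthetase complex with the scaffold proteins AIMP1 and AIMP2. The 8 complex members did not move together in CBAP-KO cells, with 2 called higher, 4 lower and a range of log2 changes from -0.85 to 0.34. The 13 other cytosolic members had 1 called higher and 4 lower, where 23.9% and 25.9% of all genes tested were. AIMP2 had an FPKM of 62.4 and 65.3 in the CBAP-reconstituted libraries and 35.3 and 39.7 in the CBAP-KO libraries (log2 change -0.75, adjusted p = 0.00112 from limma). AIMP1 had 43.7 and 43.3 and then 31.2 and 30.9 (log2 change -0.47, adjusted p = 0.00267). Both scaffold genes were lower in the knockout libraries, and in the shRNA set they had log2 changes of 0.00 and 0.02. The difference between the sets was 0.76 for AIMP2 (adjusted p = 0.00669) and 0.49 for AIMP1 (adjusted p = 0.0133). EEF1E1, the remaining scaffold gene, has no row under that symbol.

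The synthetases fall into 2 structural classes by the fold of the active site. Among mitochondrial members 7 of 9 in class I and 4 of 7 in class II were called lower in CBAP-KO cells, with medians of -0.63 and -0.31. The 7 include VARS2, which was listed at 0 in 6 libraries. For members with no listed 0 the medians were -0.61 and -0.30. Among cytosolic members, with EPRS counted in both, 2 of 10 in class I were called higher and 3 lower, and 1 of 12 in class II was called higher and 5 lower. Of all genes tested, 23.9% were called higher and 25.9% lower. Whether the classes differed was not tested.

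Mitochondria lack a separate glutaminyl-tRNA synthetase and make the charged glutamine tRNA by a detour, in which EARS2 first loads glutamate and the GatCAB complex then amidates it. Of the 3 subunit genes, PET112, now named GATB, had an FPKM of 19.3 and 20.0 in the CBAP-reconstituted libraries and 12.3 and 11.0 in the CBAP-KO libraries (log2 change -0.71, adjusted p = 0.00147). QRSL1 had 19.1 and 18.2 and then 14.4 and 14.3 (log2 change -0.35, adjusted p = 0.0128). Both were lower in the knockout libraries, as EARS2 was, while GATC had 17.3 and 17.7 and then 20.1 and 19.8 and was not called (adjusted p = 0.281). MTFMT, which formylates the initiator methionine tRNA of mitochondria, was not called in either set. With shRNA 0 of these 4 genes were called by limma, with 0 at an unadjusted p under 0.05.

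Of 3 genes for selenocysteine tRNA, PSTK, the kinase that phosphorylates serine on that tRNA, was called lower in CBAP-KO cells (2.74 and 3.05 against 1.99 and 1.94, log2 change -0.39, adjusted p = 0.0371). SEPHS2, which makes the selenium donor, was called lower in sh-CBAP cells (53.4 and 56.7 against 45.2 and 44.6, log2 change -0.29, adjusted p = 0.0269), and SEPSECS was called in neither set. The calls of PSTK and SEPHS2 were each kept in 7 of 16 alternatives. DTD1, which removes D-amino acids from mischarged tRNA, had 10.5 and 10.4 in the CBAP-reconstituted libraries and 6.33 and 6.42 in the CBAP-KO libraries (log2 change -0.63, adjusted p = 0.00393). DTD2, a related gene, was listed at 0 in both sh-Ctrl libraries and had 7.14 and 8.15 in the sh-CBAP libraries.

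The amino acid response was described by 13 genes, from ATF4 and the gene of the kinase GCN2 to known targets of the response. In CBAP-KO cells 7 of them were called higher and 0 lower, where 23.9% and 25.9% of all genes tested were. The median log2 change of the 13 was 0.49. ATF4 had an FPKM of 356 and 361 in the CBAP-reconstituted libraries and 466 and 470 in the CBAP-KO libraries (log2 change 0.38, adjusted p = 0.00502 from limma). ASNS had 5.28 and 4.44 and then 25.1 and 25.5 (log2 change 2.17, SE 0.24, adjusted p = 0.00119). SLC7A11, the cystine transporter, had 1.93 and 2.18 and then 8.08 and 8.85 (log2 change 1.63, adjusted p = 0.00129). TRIB3, CHAC1, SESN2 and PSAT1 were also called, with log2 changes between 0.49 and 1.58. PSAT1 kept its call in 7 of 16 alternatives, and CHAC1 and SESN2 in 12, each losing it with any 1 CRISPR-set library left out. The 6 genes not called were ATF3 (0.50), SLC7A5 (0.20), PHGDH (0.10), DDIT3 (-0.03), SLC3A2 (-0.06) and EIF2AK4 (-0.16), given as log2 changes. Without overlap between the libraries, 10 of the 13 genes were higher in CBAP-KO cells, the 7 called among them, and 2 were lower. All genes tested did so in 43% (higher) and 42.7% (lower).

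In the shRNA set 0 of the 13 genes were called higher and 1 lower, EIF2AK4, which encodes the kinase GCN2 that senses uncharged tRNA (22.1 and 21.6 in sh-Ctrl against 14.3 and 16.6 in sh-CBAP cells, log2 change -0.48, adjusted p = 0.02), a call kept in 8 of 16 alternatives. The sh-Ctrl libraries differed from each other in some of these genes, with ASNS at 15.1 and 8.42 and CHAC1 at 15.8 and 5.89. The sh-CBAP libraries lay between them at 9.78 and 9.65 for ASNS and at 9.06 and 9.74 for CHAC1. In others, such as EIF2AK4 and DDIT3 (5.53 and 5.69), the sh-Ctrl libraries were close. The change of ASNS differed between the sets (difference -2.37, adjusted p = 0.0054), as did those of ATF4, TRIB3 and SLC7A11. These 4 of 13 genes are a share of 30.8%, beside 33.8% of all genes tested.

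**Figure D5:**
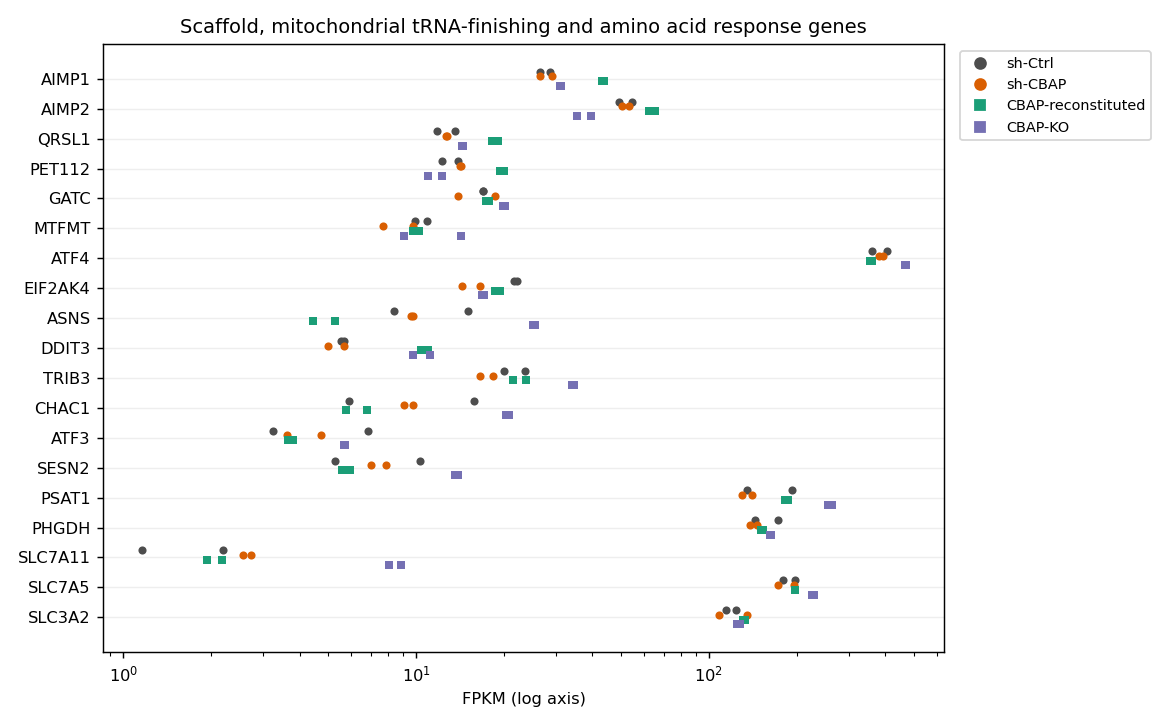
FPKM (log axis) of the scaffold genes, the genes that finish mitochondrial tRNAs and the amino acid response genes in each of the 8 libraries, coloured by condition. The CBAP-KO points (purple squares) lie left of the CBAP-reconstituted points (green squares) for AIMP1, AIMP2, QRSL1 and PET112 and right of them for ATF4, ASNS, TRIB3, CHAC1, SESN2, PSAT1 and SLC7A11.

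The promoter motif TGATGNAA was then set beside the changes of the cytosolic genes, a search chosen after the values were seen and given with no test. Of the 7 genes that hold it, 6 had no listed 0 (CARS, GARS, IARS, MARS, NARS and TARS). All 6 had log2 changes above 0 in the CRISPR set, from 0.12 to 0.36 with a median of 0.31, and NARS, MARS and IARS were called higher. EPRS, FARSA, FARSB, HARS, KARS, QARS, RARS, SARS and WARS had a window and no motif, and DARS, LARS, TARSL2, VARS and YARS had no window to search. The 9 genes without the motif had log2 changes from -0.85 to 0.07 with a median of -0.39, and 6 of them were called lower. Of all genes tested, 23.9% were called higher and 25.9% lower in this set. With quantile normalization the changes ran from 0.38 to 0.59 for the 6 genes and from -0.68 to 0.30 for the 9, so SARS and WARS, too, were then called higher. In the shRNA set 3 of the 6 genes with the motif were above 0 and 3 under it, and IARS was called lower. YARS2 holds the motif and was lower in CBAP-KO cells. Among all promoter windows searched, 3.62% held the motif. A match is only a match of letters, and whether a factor binds there was not measured in these libraries.

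Listed zeros were found in 3 members, and their values depend on how a 0 is read. VARS2, for mitochondrial valine, was listed at 24.7 and 25.0 in the CBAP-reconstituted libraries and at 0 in the other 6 libraries. It is counted among the 11 mitochondrial calls, and its fold cannot be given. AARS, the cytosolic alanine enzyme, was listed at 76.8 in sh-Ctrl replicate 1, 58.7 in sh-CBAP replicate 1 and 68.3 in CBAP-KO replicate 2, and at 0 in the other 5. TARS2, for mitochondrial threonine, was listed at 0 in sh-Ctrl replicate 2 and CBAP-KO replicate 2 and between 7.35 and 12.9 in the others. AARS and TARS2 were not called in either set, and each of their zeros stands beside a measured value in the other library of the condition, except for AARS in CBAP-reconstituted cells. With the listed zeros treated as missing, an alternative added after seeing the data, 11 of the 15 mitochondrial members that could be tested were called lower in the CRISPR set, and 12 of 20 cytosolic members were called.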

How the data were processed

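RNA of Jurkat-derived cells was sequenced in 8 libraries, as 100-bp paired-end reads. The authors aligned them to hg19 with TopHat 2 and estimated FPKM with cuffdiff, and per the labels CASAVA 1.8, Bowtie and Cufflinks were also used. The deposited table holds 1 FPKM column per library, scaled to exon length and mapped fragments, so depth is unknown and precision rests on 2 libraries per condition. The annotation, strand setting and scaling between libraries are not given in the sources used here. Conditions were therefore compared within a set, whereas mean levels pool all 8 libraries.

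From these values log2(FPKM + 1) was computed and 11427 genes, those whose mean FPKM reached 1, were fitted in limma 3.58.1 (R 4.3.3) with a mean per condition over all 8 libraries and empirical Bayes with trend. Contrasts were sh-CBAP minus sh-Ctrl, CBAP-KO minus CBAP-reconstituted and their difference, with Benjamini-Hochberg adjustment. The script was tested on simulated data for the CRISPR-set contrast only, with the same spread of a gene in every library. That test does not cover the shRNA-set contrast or the difference between the sets. Python 3.11.15, pandas 2.3.3 and matplotlib 3.10.9 were used. Exon overlaps and gene positions came from GENCODE 44 lifted to GRCh37, and promoters from RefSeq (GRCh38.p14).

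Members and lists were chosen with earlier results of these data known. Named were the up to 6 cytosolic and 4 mitochondrial members with the largest called change in each set, those called in both, those whose change differed between the sets with opposite signs, those with a listed 0, TMEM102, a fixed few pathway genes and further pathway genes that were called. The values of other members, such as MARS, NARS, DARS, FARSB, IARS2, HARS2, RARS2 and CARS2, were chosen after they were seen. Alternatives were a pseudocount of 0.1, no filter, 2 other scalings, each set on its own, the replicate block, each library left out and 2 treatments of listed zeros.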

Additional observations from a re-analysis of the deposited data

Results flagged for a closer look

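The change of 12 synthetase genes differed between the shRNA set and the CRISPR set in a test of the difference itself (limma, adjusted p under 0.05), as it did for 33.8% of all genes tested. The values are differences of log2 changes, shRNA set minus CRISPR set. Among the cytosolic genes the difference was 0.922 for RARS, 0.536 for KARS, 0.461 for HARS and 0.387 for VARS, each lower in CBAP-KO cells. It was -0.745 for IARS, -0.575 for YARS and -0.338 for MARS, each with the higher value of the change in the CRISPR set. Among the mitochondrial genes it was 0.893 for EARS2, 0.792 for YARS2, 0.737 for WARS2 and 0.687 for LARS2. VARS2 had a fitted difference of 4.69, which rests on libraries listed at 0 and depends on the pseudocount.

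Among the other genes of the pathway the difference was 0.822 for PET112, 0.758 for AIMP2, 0.506 for DTD1, 0.489 for AIMP1 and -0.304 for SEPHS2. For the amino acid response genes it was -2.37 for ASNS, -1.16 for SLC7A11, -0.891 for TRIB3 and -0.367 for ATF4. DTD2 (3.19) and TMEM102 (-0.509) also differed, and both values rest on conditions listed at 0. With 2 libraries per condition no single library could be tested for standing apart from its group.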

How the results depend on the processing

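The depth of the libraries is unknown and each condition has 2, so small differences could not be resolved. The 11 mitochondrial synthetases called lower in the CRISPR set numbered 10 to 14 under every alternative that kept all libraries, with 0 higher, and the count ran from 7 to 12 with single libraries left out. The median of all mitochondrial members was -0.455 with a pseudocount of 0.1, -0.352 without genes listed at 0, -0.341 with zeros treated as missing (chosen after seeing the data) and from -0.489 to -0.295 with single libraries left out. In the shRNA set 1 mitochondrial member was called with median scaling and 0 to 2 with single libraries left out, and the median of all members was -0.026 with quantile normalization and -0.0175 with median scaling.

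The 11 cytosolic calls in the CRISPR set became 17 with each set fitted on its own and ran from 7 to 14 with single libraries left out, and the median of all 21 members was 0.232 with quantile normalization. The 4 cytosolic calls in the shRNA set became 7 with median scaling and 0 with the set fitted on its own (5 at an unadjusted p under 0.05, limma), and ran from 0 to 7 with single libraries left out. The median of all 21 cytosolic members there ran from -0.183 to 0.0361, the last without sh-CBAP replicate 1. Differences between the sets were called for 4 to 9 cytosolic and 5 to 7 mitochondrial members with single libraries left out, and for 8 mitochondrial members with median scaling. The cause of these shifts was not tested.

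The replicate numbers are only shared numbers. Deviations of same-numbered libraries from their condition means correlated at 0.146 (shRNA set) and 0.0239 (CRISPR set). With the replicate block 0 cytosolic members were called in the shRNA set (6 at an unadjusted p under 0.05), and 10 cytosolic and 10 mitochondrial members in the CRISPR set. Differences were called for 5 and 5. Of all genes tested, 49 were called higher and 22 lower in the shRNA set with this block.

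Among the named genes, the log2 changes that changed sign were all of genes not called in that set. With single libraries left out, the values in the shRNA set ran from -0.107 to 0.248 for RARS, -0.115 to 0.0725 for HARS, -0.00343 to 0.135 for KARS, -0.0681 to 0.072 for MARS, -0.249 to 0.0183 for FARSB and -0.00943 to 0.118 for LARS2. They ran from -3.33 to 2.95 for AARS and -0.555 to 3.24 for TARS2, which have listed zeros. For the other genes of the pathway they ran from -0.0506 to 0.0847 for AIMP1, -0.0696 to 0.0791 for AIMP2, -0.0912 to 0.102 for QRSL1, -0.067 to 0.102 for ATF4, -0.587 to 0.185 for ASNS, -0.692 to 0.593 for CHAC1, -0.415 to 0.428 for SESN2 and -0.511 to 1.3e-05 for PSAT1. In the CRISPR set SEPHS2 ran from -0.0189 to 0.0524. HARS in the shRNA set was 0.032 with quantile normalization and 0.0483 with median scaling. There CHAC1 was 0.0161 with median scaling, and TARS2 was -0.555 with zeros treated as missing. Of the other members, GARS, LARS, SARS, TARS and SARS2, not called there, also changed sign in the shRNA set with both scalings, to values from 0.0301 to 0.0847. Cytosolic members above 0 in that set numbered 5 as deposited and 10 in each scaling.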
